A study of Mus musculus with 6 samples.

Results

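The genes described here encode the machinery with which a cell takes up retinol, turns it into retinoic acid, carries the acid and responds to it. They were the rows named *Aldh1a1*, *Aldh1a2*, *Aldh1a3*, *Rara*, *Rarb*, *Rarg*, *Crabp1*, *Crabp2* and *Stra6*, 9 of the 43346 rows in the table of gene counts. RNA-seq had been run on mouse adult fibroblasts (MAFs), primary ear cells of C57BL6/J females that were adult, in 3 control and 3 senescent samples. Senescent MAFs were X-irradiated with 20 Gy and harvested after a further 21 days, whereas control MAFs were sham irradiated. Both groups were grown at 3% oxygen, used at passages 3 to 8, given 100 nM dexamethasone for 2 hours and collected 12 hours later, so every value belongs to 1 time point after a glucocorticoid. The sources used here do not say whether the replicates came from separate animals or cultures, so p-values measure the spread between these samples, which may be technical. Values of single libraries are given in the order of replicates 1, 2 and 3.

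Retinol (vitamin A) enters cells through STRA6, the receptor for the plasma retinol-binding protein. It is oxidised reversibly to retinal, and the aldehyde dehydrogenases ALDH1A1, ALDH1A2 and ALDH1A3 then oxidise retinal irreversibly to retinoic acid. Inside the cell the acid is held by CRABP1 and CRABP2, of which CRABP2 is known for passing it to the nucleus. There the receptors RARα, RARβ and RARγ, paired with an RXR, bind response elements in DNA and switch genes on once the acid is bound, while CYP26 enzymes break the acid down. In skin and cartilage, retinoic acid is known to influence how keratinocytes, fibroblasts and chondrocytes differentiate.

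*Crabp2* was 15.8-fold and *Aldh1a1* 7.12-fold higher in senescent than in control cells, *Stra6* and *Aldh1a2* had almost no counts in control cells and a few in each senescent library, and *Aldh1a3* and *Rarb* rose by smaller amounts. *Rarg* and *Rara* fell 2.11-fold and 1.87-fold, and *Crabp1* was not called. Of the 9 genes, 8 had enough counts for edgeR's quasi-likelihood test, of which 5 were higher, 2 lower and 1 not called at an adjusted p under 0.05. In the same comparison 70.3% of the 17589 genes tested were called, 36.2% higher and 34.1% lower, so being called was common among all genes. *Stra6* passed the filter on low counts only through the senescent libraries, and with at least 10 counts required in every library 4 were higher. The median log2 fold change of the 8 genes was 0.91, against 0.01 over all tested genes. It lies between the values of *Rarb* and *Aldh1a3*, so it cannot show the uncertainty in *Stra6*, whose lower bound is above both. Without *Stra6*, the middle value would be that of *Rarb*, 0.68. By the study's own limits for a differentially expressed gene (DEG), p under 0.05 before adjustment with a more than 2-fold change, 4 were higher and 1 lower, where 30.1% of all tested genes were DEGs, 17.8% higher and 12.3% lower. With the p limit at 1e-05, 2 were higher (*Crabp2* and *Aldh1a1*) and 0 lower, against 8.27% and 7.0% of all tested genes. RNA was measured, and the proteins and retinoic acid itself were not analysed here. In bulk RNA, fewer cells of a type and less RNA per cell cannot be told apart.

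**Figure D1:**
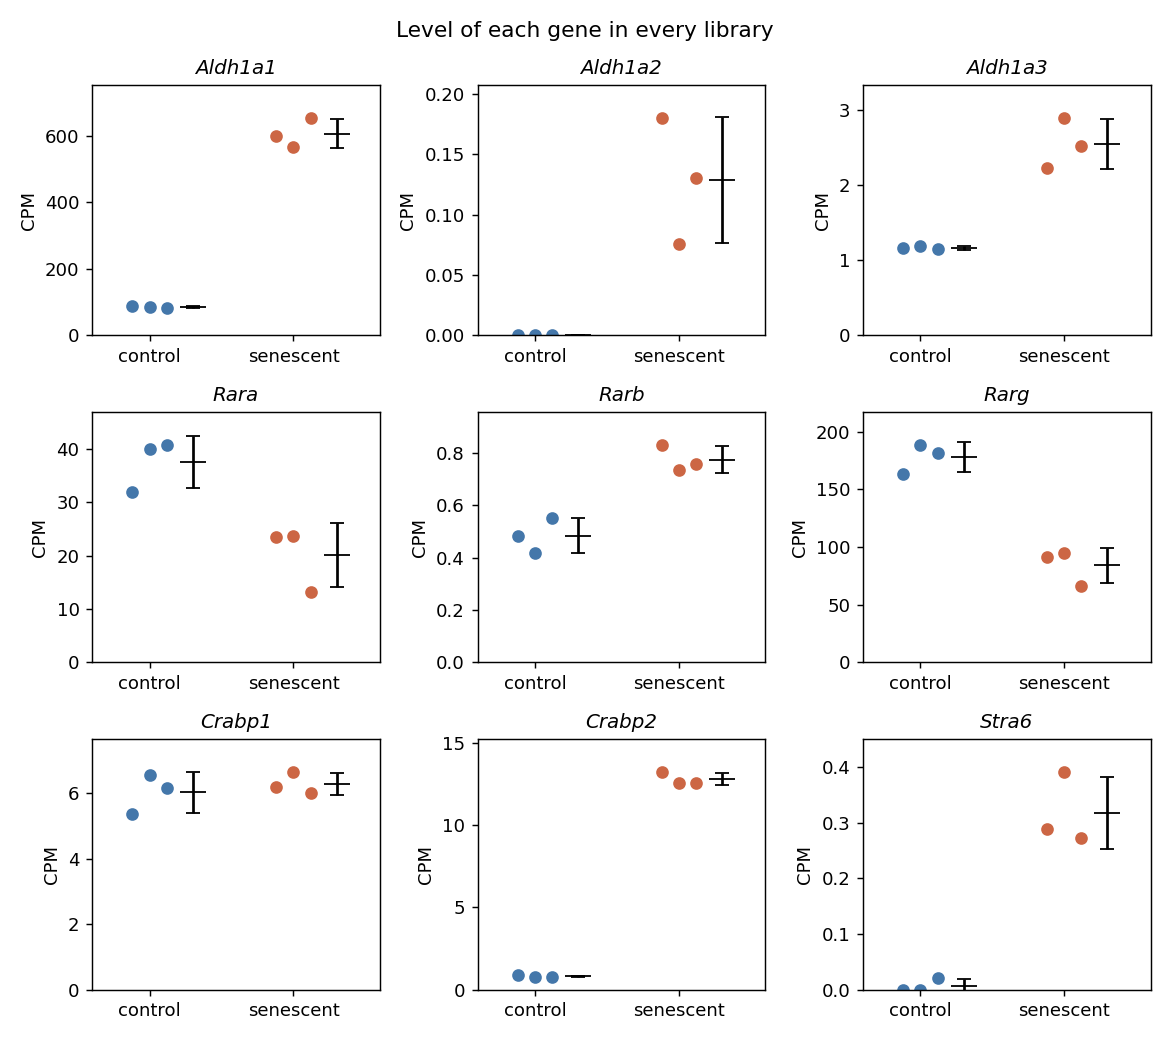
Level of the 9 genes in each of the 6 libraries, in CPM after TMM scaling ( y axis from 0, own scale per panel), with control libraries in blue, senescent libraries in orange, and bars for mean ± SD over 3 libraries per group. The groups are apart in 8 panels and overlap in the panel of *Crabp1*, and *Aldh1a2*, *Rarb* and *Stra6* lie below 1 CPM in every library.

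Total counts lay between 50288454 and 82229553 per library. Senescent replicate 3 stood apart, with squared count differences of 18.5 and 24.6 times sampling noise (medians over genes) to the other senescent libraries, which differed from each other by 2.25 times. Control replicate 1 differed from control replicates 2 and 3 by 5.33 and 4.68 times, and these from each other by 1.77 times. All libraries were kept as separate samples. Of 10 fibroblast markers all were tested, and their summed level was 21410 to 23921 CPM in control and 9191 to 11829 CPM in senescent libraries, with 3 higher (*Dcn* by 3.50 on the log2 scale) and 5 lower (*Col3a1* at -2.0). Of 13 chondrocyte markers 12 were tested, 11 lower and 1 higher, and their sum was 7277 to 7890 CPM in control and 634 to 731 CPM in senescent libraries. *Acan* and *Col9a1*, genes of cartilage matrix, stood at 1853 and 114 CPM in control cells against 131 and 3.41 CPM after senescence, so RNA typical of cartilage was abundant in libraries labelled fibroblast. As a check of the senescent label, *Lmnb1*, a gene of the nuclear lamina, and *Ccnb1*, a gene of cell division, fell by 3.55 and 5.18 on the log2 scale. Of 6 genes in that list, the 3 that rose encode cell cycle inhibitors, and the 3 that fell include *Lmnb1* and *Ccnb1*. These values move with the groups in every result that follows, and their part in those results was not tested.

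Sums of markers of other cell types were small. Of 7 macrophage markers 6 had a row, all 6 were higher, and their sum was 6.07 to 6.82 CPM in control and 14.5 to 17.2 CPM in senescent libraries, with *Lyz2* and *Ptprc* at 4.51 and 1.39 CPM in senescent cells. Of 6 endothelial markers 5 were tested and all 5 were higher, with sums of 2.55 to 2.93 CPM and 8.16 to 8.70 CPM, and *Kdr* and *Pecam1* were at 2.92 and 1.29 CPM in senescent cells. Several macrophage and endothelial markers passed the filter on low counts only through the senescent libraries, so their direction was partly set by the filter. Of all tested genes, 36.2% were called higher. The 8 keratinocyte markers summed to 16.4 to 17.0 CPM in control and 9.52 to 9.94 CPM in senescent libraries, with *Trp63* lower and *Cdh1* higher. *Krt14* and *Krt1* averaged below 0.1 CPM in both groups. The other keratins of the list, *Krt5* and *Krt10*, averaged 1.00 and 1.95 CPM in control and 1.53 and 1.94 CPM in senescent libraries, and were not called. The 6 skeletal muscle markers (15.5 to 20.9 CPM and 15.1 to 27.8 CPM, with *Des* higher and *Acta1* not called) and the 8 of Schwann cells and melanocytes (34.1 to 35.9 CPM and 21.4 to 22.7 CPM, with 1 of 5 tested genes higher, 3 lower and 1 not called, *Mitf* being higher and *Mbp* lower) completed the check. No marker of these lists was at 0 in all 6 libraries. The part of these cell types in the results that follow was not tested.

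Uptake was represented by *Stra6* (ENSMUSG00000032327, mm10 chr9:58063788-58153996, plus strand), the membrane receptor that brings retinol into cells. It had 0, 0 and 1 counts in the control libraries against 16, 31 and 23 in the senescent ones. Every senescent library was above every control library, yet even the highest level, 0.391 CPM, was low. From the summed counts scaled for library size, the senescent level was 50.7 times the control level. The 95% interval, 8.80 to 2029, covers counting error only. The adjusted p was 0.000211 (edgeR's quasi-likelihood test), but the gene entered that test only through its senescent libraries. Counts of this kind were commoner in one direction. Of 21141 rows with at most 1 count over the control libraries, 206 (0.974%) had at least 16 in every senescent library, while 0 of 16626 rows did the reverse. The gene overlaps *Ccdc33* on the opposite strand, which had 7 to 15 counts per library, and the strand setting of the counting is not given in the sources used here.

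The retinoic acid-binding proteins took separate courses. *Crabp2* (ENSMUSG00000004885, chr3:87948666-87953376, plus strand) measured 0.862, 0.770 and 0.797 CPM in the control libraries against 13.2, 12.6 and 12.6 CPM in the senescent ones. All senescent values lay within a narrow band far above the control values. Senescent over control, this gave a log2 fold change of 3.98 (standard error 0.10; adjusted p = 3.30e-08, edgeR's quasi-likelihood test), and only 4.62% of tested genes had a larger absolute change. *Crabp1* (ENSMUSG00000032291, chr9:54764748-54773110, plus strand), which holds the acid in the cytoplasm, measured 5.35, 6.56 and 6.15 CPM in the control libraries against 6.19, 6.65 and 6.0 CPM in the senescent ones. The groups overlapped. Its log2 fold change was 0.06, with a 95% interval from -0.18 to 0.30 (adjusted p = 0.625, same edgeR test).

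Because both genes were counted in the same libraries, their balance could be followed without scaling between libraries. Per length (RPKM, CPM per kilobase, computed here with the gene lengths in the table), *Crabp2* made up 7.61% ± 1.16 of the CRABP sum in control and 55.3% ± 1.65 in senescent cells (SD of 3 libraries each), while the sum went from 8.12 ± 0.729 to 17.5 ± 0.433 RPKM. The log2 ratio of *Crabp1* to *Crabp2* counts was 2.88 ± 0.233 in control and -1.03 ± 0.0957 in senescent cells, so the order of the pair turned. An exact two-sided permutation test gave p = 0.1, the smallest value that 3 against 3 samples allow (adjusted p = 0.125 over 5 pairs).

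**Figure D2:**
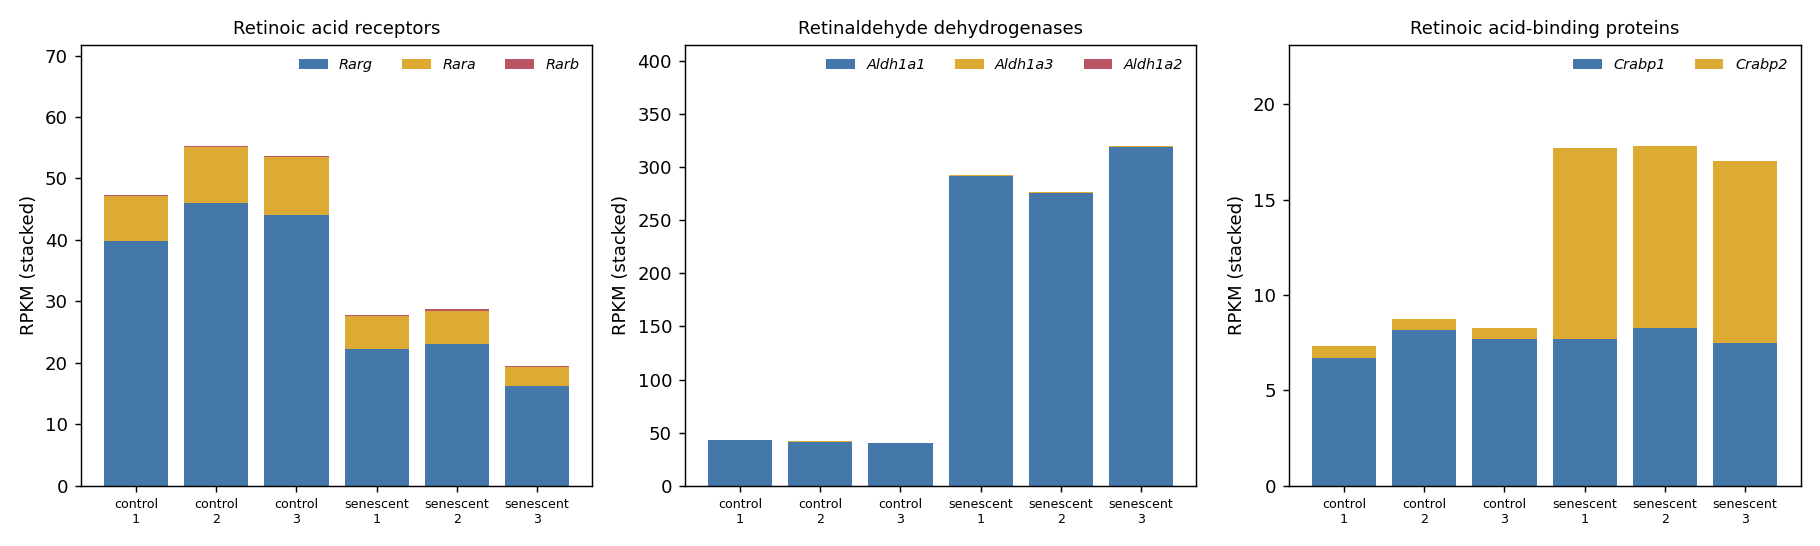
Level per length (RPKM, stacked, y axis from 0) of the retinoic acid receptors, the retinaldehyde dehydrogenases and the retinoic acid-binding proteins in each of the 6 libraries. The receptor stack averages 52.1 RPKM in control and 25.4 RPKM in senescent cells, with *Rarg* as its main part throughout, the dehydrogenase stack is almost all *Aldh1a1*, and *Crabp2* becomes the larger part of the binding protein stack in senescent cells.

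*Aldh1a1* (ENSMUSG00000053279, chr19:20601961-20643462, plus strand) encodes a cytosolic enzyme that makes retinoic acid from retinal and also clears other aldehydes. It measured 87.7, 85.2 and 82.7 CPM in the control libraries against 599, 567 and 654 CPM in the senescent ones. The lowest senescent value was several times the highest control value. This is 2.83 on the log2 scale, with a standard error of 0.07 (adjusted p = 3.77e-08, edgeR's quasi-likelihood test), and 8.22% of tested genes had a larger absolute change. Its level in senescent cells exceeded that of 99.4% of tested genes.

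Its neighbour *Aldh1a7* (ENSMUSG00000024747, chr19:20692953-20727562, minus strand), a rodent paralog, went the other way. It measured 136, 125 and 130 CPM in the control libraries against 43.0, 42.2 and 46.7 CPM in the senescent ones, again without overlap. The log2 fold change was -1.57 (standard error 0.06; adjusted p = 4.04e-07, edgeR's quasi-likelihood test). A gap of 49490 bases with 0 other rows lies between the genes. Their main transcripts were identical at 90.3% of 2044 aligned bases, but only 1 of 1954 stretches of 100 bases, the length of a read, occurred in both, and how reads with several possible origins were handled is not given in the sources used here. With the counts of both genes summed, the level went from 215 ± 7.12 to 651 ± 46.8 CPM (SD of 3 libraries each), or 1.59 on the log2 scale. The share of *Aldh1a1* in that sum went from 39.5% ± 0.812 to 93.2% ± 0.150.

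The proximal promoters of the pair are shown because this stretch is nearly alike while the RNA of the genes moved apart. Both stretches run from 120 to 11 bases before the RefSeq start site (build GRCm38.p6), 5′ to 3′ on the strand of the gene, at chr19:20601848-20601957 on the plus strand and chr19:20727567-20727676 on the minus strand. Capitals mark bases that differ or have no partner in the alignment.
Aldh1a1: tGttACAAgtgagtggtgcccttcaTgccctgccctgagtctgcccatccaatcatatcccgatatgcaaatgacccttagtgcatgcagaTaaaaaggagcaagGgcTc
Aldh1a7: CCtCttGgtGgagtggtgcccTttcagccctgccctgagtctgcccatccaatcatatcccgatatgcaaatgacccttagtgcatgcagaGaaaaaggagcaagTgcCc
Of 106 aligned bases, 101 (95.3%) were identical. Over the whole 250 bases before the start sites only 174 could be aligned, of which 165 (94.8%) were identical, and the other bases had no partner. Counted from 1 at the 5′ end of the *Aldh1a1* stretch, the substitutions were G2C, A8G, T92G, G106T and T109C.

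*Aldh1a2* (ENSMUSG00000013584, chr9:71215789-71296243, plus strand), the main retinoic acid-making enzyme of the early embryo, had 0 counts in all control libraries and 10, 6 and 11 in the senescent ones. The senescent level, 0.129 ± 0.0523 CPM (SD of 3 libraries), was at least 2.25-fold higher than the 0.0572 CPM that 3 counts in each control library would give. The gene was below the filter and was not tested. Of 19383 rows with 0 control counts, 376 (1.94%) had at least 6 counts in every senescent library, against 2 of 14256 (0.014%) in the reverse direction.

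*Aldh1a3* (ENSMUSG00000015134, chr7:66390892-66427517, minus strand), the third enzyme of the family, measured 1.16, 1.19 and 1.14 CPM in the control libraries against 2.24, 2.90 and 2.52 CPM in the senescent ones. All senescent libraries were higher. Senescent over control, this gave a log2 fold change of 1.14 (standard error 0.14; adjusted p = 0.000176, edgeR's quasi-likelihood test). The log2 ratio of *Aldh1a1* to *Aldh1a3* counts went from 6.18 ± 0.0387 to 7.89 ± 0.250 (exact permutation p = 0.1, adjusted p = 0.125). Per length, *Aldh1a1* made up 99.4% of the RNA of the 3 enzymes in control and 99.8% in senescent cells, and their sum went from 41.7 ± 1.23 to 296 ± 21.6 RPKM (SD of 3 libraries each).

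*Rarg* (ENSMUSG00000001288, chr15:102234938-102257517, minus strand) encodes RARγ, the receptor known as the main form in skin and cartilage. It measured 164, 189 and 181 CPM in the control libraries against 91.3, 94.8 and 66.7 CPM in the senescent ones. Every senescent value was below every control value, and senescent replicate 3 was the lowest. This is -1.08 on the log2 scale, with a standard error of 0.13 (adjusted p = 0.000176, edgeR's quasi-likelihood test), and -0.93 without senescent replicate 3.

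*Rara* (ENSMUSG00000037992, chr11:98927818-98974942, plus strand), which encodes the widely expressed RARα, measured 32.0, 39.9 and 40.8 CPM in the control libraries against 23.4, 23.7 and 13.2 CPM in the senescent ones. Again the groups did not overlap and senescent replicate 3 was the lowest. The log2 fold change was -0.90 (standard error 0.22; adjusted p = 0.00624, edgeR's quasi-likelihood test), and -0.67 without senescent replicate 3. The small nuclear RNA *Gm22061*, which overlaps *Rara* on the same strand, had 1 to 5 counts per library.

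*Rarb* (ENSMUSG00000017491, chr14:16430842-16575472, minus strand) encodes RARβ, a receptor whose own gene is a textbook target of retinoic acid. It measured 0.481, 0.418 and 0.552 CPM in the control libraries against 0.830, 0.732 and 0.758 CPM in the senescent ones, from 24 to 64 counts per library. The groups did not overlap, although the gap between them was small. Senescent over control, this gave a log2 fold change of 0.68 (standard error 0.19; adjusted p = 0.0118, edgeR's quasi-likelihood test). Without control replicate 2 it was 0.57 and no longer called (adjusted p = 0.0516, same edgeR test).

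The *Rarb* promoter is printed because it holds the response element through which retinoic acid is known to act on this gene. The stretch covers 120 to 11 bases before the RefSeq start site (GRCm38.p6, chr14:16575487-16575596, minus strand, 5′ to 3′), and capitals mark a direct repeat with a spacer of 5 bases (DR5).
Rarb: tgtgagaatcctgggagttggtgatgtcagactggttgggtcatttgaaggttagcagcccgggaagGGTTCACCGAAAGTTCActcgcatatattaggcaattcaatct
The match lies from -53 to -37 relative to the start site. Windows from 250 bases before to 50 after a RefSeq start were available for 7 of the 9 genes (15 windows in all, none for *Aldh1a3* and *Crabp2*) and were searched on both strands for direct repeats with a spacer of 1, 2 or 5 bases, for the AP-1 motif TGACTCA and for the E-box CACGTG. A DR5 match occurred in 0.0974% of all 32851 windows, and among the 7 genes with a window in *Rarb* alone. Repeats with a spacer of 1 or 2 bases, held by 0.222% and 0.268% of all windows, were not matched in the 15 windows. *Rara* held an E-box (7.15% of all windows), from -10 to -5 at one of its start sites. A start site of *Aldh1a1* that lies 109378 bases upstream of the start in the count table held the AP-1 motif from -57 to -51 (5.20% of all windows). These matches describe letters only.

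Within the receptor family, the log2 ratio of *Rarb* to *Rarg* counts went from -8.50 ± 0.250 to -6.74 ± 0.280, and that of *Rara* to *Rarb* counts from 6.25 ± 0.267 to 4.64 ± 0.467 (SD of 3 libraries each; exact permutation p = 0.1, adjusted p = 0.125). The ratio of *Rara* to *Rarg*, -2.25 ± 0.101 and -2.10 ± 0.204, overlapped between the groups (exact permutation p = 0.3, adjusted p = 0.3). Per length, *Rarg* made up 83.2% ± 0.962 of the receptor RNA in control and 81.1% ± 1.85 in senescent cells, *Rara* 16.5% and 17.9%, and *Rarb* 0.308% and 1.03%. The sum of the 3 receptors went from 52.1 ± 4.17 to 25.4 ± 5.10 RPKM (SD of 3 libraries each), with *Rarg* as the main receptor in every library.

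**Figure D3:**
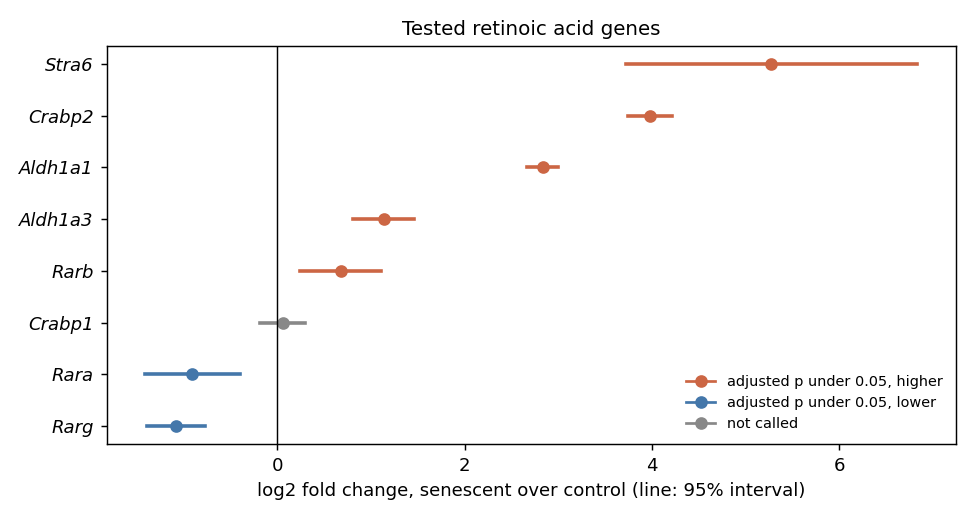
Log2 fold change (senescent over control) of the 8 tested genes with 95% intervals from edgeR's quasi-likelihood fit, coloured by call. The interval of *Crabp1* spans 0, and the position of *Stra6* depends on the small count that the fit adds, because its control libraries held 0, 0 and 1 counts.

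Across the 9 genes, the 3 control and 3 senescent values of 8 did not overlap, 7 of them among the 8 tested. Of all tested genes, 75.4% had no overlap, 38.4% with the senescent and 37.0% with the control values on top. In RPKM, the order of levels in control cells was *Rarg* (43.3 ± 3.13), *Aldh1a1* (41.5 ± 1.23), *Rara* (8.61 ± 1.11), *Crabp1* (7.51 ± 0.765), *Crabp2* (0.612 ± 0.0359), *Aldh1a3* (0.252 ± 0.00476), *Rarb* (0.159 ± 0.0220), *Stra6* and *Aldh1a2*. The values of *Rarg* and *Aldh1a1*, of *Rara* and *Crabp1*, and of *Stra6* and *Aldh1a2* overlapped. In senescent cells the order was *Aldh1a1* (295 ± 21.6), *Rarg* (20.5 ± 3.73), *Crabp2* (9.67 ± 0.286), *Crabp1* (7.83 ± 0.414), *Rara* (4.61 ± 1.37), *Aldh1a3* (0.553 ± 0.0723), *Rarb* (0.255 ± 0.0167), *Aldh1a2* (0.0569 ± 0.0231) and *Stra6* (0.0544 ± 0.0110). Only the values of *Aldh1a2* and *Stra6* overlapped there. *Crabp2* thus moved from below to above both *Crabp1* and *Rara*.

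Tested genes with the most similar pattern were sought for the 2 genes with the largest change among those called with a mean of at least 1 CPM, by the root mean square difference of centred log2 CPM over the 6 libraries. For *Crabp2* these were *Spry4* (0.0340), *Ankrd1* (0.0719) and *Atf3* (0.0759). For *Aldh1a1* they were *Snap25* (0.0364), *Rgs2* (0.0427) and *Map7d2* (0.0488). *Snap25* had 0 control counts, so its likeness depends on the 0.05 CPM added before taking logs. With 2 groups, a small distance mainly marks a group difference of similar size. The log2 fold changes of the genes near *Crabp2* were 3.90, 3.84 and 3.86, against 3.98 for *Crabp2* itself. Shared regulation was not tested.

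The rest of the pathway was followed in 7 lists ordered by role, 68 genes in all without the 9 above. Of these 50 were tested, 14 were higher, 23 lower and 13 not called (74.0% called, against 70.3% of all tested genes), and the median log2 fold change was -0.12. Without a filter on low counts, 22 were called higher.

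For uptake, binding and storage, 5 of 11 genes were tested, 2 higher, 1 lower and 2 not called, with a median of -0.08. *Rbp4*, the plasma carrier of retinol, rose from 4.68 ± 0.164 to 12.3 ± 0.765 CPM (SD of 3 libraries each; log2 fold change 1.40). *Stra6l*, a relative of *Stra6* that also binds RBP4, had 5 counts over the control and 89 over the senescent libraries, 12.9 times as many after scaling (95% counting interval 5.32 to 40.6). It too passed the filter only through the senescent libraries, and its fitted log2 fold change ran from 3.07 to 4.18 with single libraries left out. *Bco2*, which cleaves carotenoids, fell by 2.25 on the log2 scale, and *Dgat1*, which can esterify retinol, was not called (-0.10).

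Among the enzymes that interconvert retinol and retinal, 14 of 18 were tested, 6 higher, 6 lower and 2 not called. *Rdh10*, the chief enzyme that oxidises retinol for retinoic acid synthesis, measured 13.9, 13.1 and 13.2 CPM in the control libraries against 32.6, 31.6 and 38.5 CPM in the senescent ones, or 1.35 on the log2 scale (standard error 0.09; adjusted p = 6.51e-06, edgeR's quasi-likelihood test). *Dhrs3*, which returns retinal to retinol, measured 212, 221 and 214 CPM in the control libraries against 42.6, 43.9 and 39.5 CPM in the senescent ones, or -2.36 on the log2 scale (standard error 0.06; adjusted p = 4.33e-08, same edgeR test). The groups did not overlap for either gene. Genes that oxidise retinol and genes that reduce retinal were each called in both directions. Whether either set moved as a whole was not tested. *Rdh5* and *Adh7*, which can oxidise retinol, were called lower (-0.73 and -0.54) and *Rdh14*, a retinal reductase, was called higher (0.41). Also called were *Rdh9*, *Adh1* and *Dhrs9*, higher (1.06, 0.89 and 0.27), and *Rdh11* and *Dhrs4*, lower (-0.58 and -0.90). *Rdh13* rose by 0.69 and *Rdh12*, a retinal reductase, fell by 1.78 on the log2 scale.

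Of 6 further aldehyde dehydrogenases, 5 were tested, 3 were lower and 2 not called. Besides *Aldh1a7*, *Aldh1l1* and *Aldh1l2*, enzymes of folate metabolism, fell by 1.19 and 1.54 on the log2 scale. *Aldh2*, which clears acetaldehyde, was not called (0.22), but was called without senescent replicate 3 (0.37, adjusted p = 0.00548, edgeR's quasi-likelihood test).

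For breakdown of retinoic acid, 2 of 3 genes were tested and 0 were called. *Cyp26b1* was the abundant one, with 96.9, 101 and 103 CPM in the control libraries against 107, 116 and 101 CPM in the senescent ones, and the groups overlapped. Its log2 fold change of 0.10 was called with scaling by total counts (0.18, adjusted p = 0.0410, edgeR's quasi-likelihood test) and without senescent replicate 3 (0.16, adjusted p = 0.00387, same edgeR test). *Cyp26a1*, known as a sensitive target of retinoic acid, went from 0.0816 ± 0.0893 to 0.266 ± 0.120 CPM (SD of 3 libraries each). The gene passed the filter on low counts through its senescent libraries (10, 17 and 34 counts, against 1, 11 and 2 in control). With at least 10 counts required in every library it was not tested. Its log2 fold change of 1.63 missed the threshold (adjusted p = 0.0522, same edgeR test). In 6 alternatives, DESeq2 and the exact test among them, it passed. Adjusted p there ran from 0.0093 without control replicate 2 (log2 fold change 3.09) to 0.0486 with RLE scaling (same edgeR test for both).

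Of the RXR partners and other nuclear routes all 5 genes were tested, 1 higher and 3 lower, and the higher one, *Rxrg*, passed the filter on low counts only through the senescent libraries. *Rxra*, the main RXR of skin, fell from 154 ± 9.49 to 76.9 ± 11.4 CPM (SD of 3 libraries each; log2 fold change -1.0) and *Rxrb* fell by 0.80 on the log2 scale. *Fabp5*, which can carry retinoic acid to another nuclear receptor, PPARδ, fell by 1.71. *Rxrg* had 4 counts over the control and 89 over the senescent libraries, 16.1 times as many after scaling (95% counting interval 6.07 to 60.4), and its fitted log2 fold change ran from 3.24 to 5.18 with single libraries left out.

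Of 10 coregulators, all tested, 1 was higher and 5 lower. *Nrip1*, a corepressor and a target of the receptors, rose by 0.82, whereas the coactivator gene *Ncoa2* and the corepressor genes *Sin3a* and *Hdac3* fell by 0.32, 0.50 and 0.47 on the log2 scale. A further list held 22 genes that textbooks name as responsive to retinoic acid. It left out the 9 genes described first, among them *Rarb*, a textbook target that was called higher. Of the 22 genes, 14 were tested, 5 higher, 6 lower and 3 not called, with a median log2 fold change of 0.01. Of the higher genes, *Hoxa4* (3 counts over the control and 56 over the senescent libraries) passed the filter only through the senescent libraries. *Dhrs3*, which fell, and *Nrip1*, which rose, belong to this list too. *Rarres1* fell from 30.3 ± 1.18 to 9.72 ± 0.894 CPM and *Zfp703* from 175 ± 9.62 to 70.3 ± 7.14 CPM (SD of 3 libraries each).

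**Figure D4:**
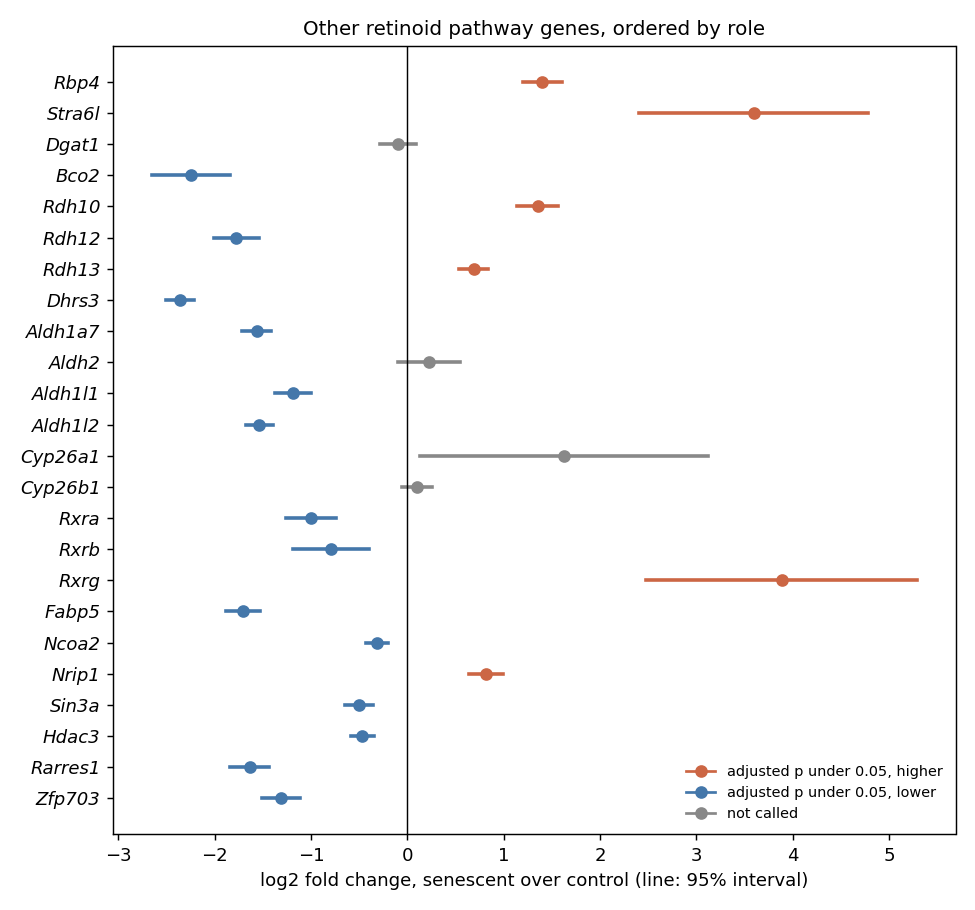
Log2 fold change (senescent over control) with 95% intervals from edgeR's quasi-likelihood fit for up to 4 genes of each pathway list, ordered from uptake and oxidoreductases to breakdown, nuclear partners, coregulators and responsive genes. *Rdh10* lies above 0 and *Dhrs3* below, the *Cyp26* genes were not called, and *Stra6l* and *Rxrg* have wide intervals because their control libraries held 5 and 4 counts in all. The interval of *Cyp26a1*, 0.13 to 3.12, is also wide and lies above 0, although its adjusted p missed the threshold. That gene passed the filter on low counts through its senescent libraries.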

How the data were processed

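Polyadenylated RNA of 3 control and 3 senescent MAF samples was sequenced by the study from both ends (100 bases) after stranded library preparation from 200 ng of RNA. Alignment to mm10 used STAR and gene counting used Subread, both run by the authors through MAPRSeq, and the deposited values are raw counts that were not normalized. Groups and replicate numbers came from the sample labels.

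From the counts, 17589 of 43346 rows passed edgeR's filterByExpr. Libraries were scaled by TMM (factors 0.968 to 1.03) and compared with edgeR's robust quasi-likelihood test (edgeR 4.0.16, R 4.3.3; two-sided, group as the only term, common biological coefficient of variation 0.100), with Benjamini-Hochberg adjustment over all tested genes and calls at an adjusted p under 0.05. CPM are TMM-scaled, and RPKM divide them by the length in the table. With 50288454 to 82229553 counts per library, 0 counts allow up to 0.0572 CPM (control) or 0.0425 CPM (senescent) (3 counts per library). Reads carried no molecular identifiers, so intervals and floors cover counting error only. Log2 count ratios of gene pairs (0.5 added to each count) were compared by exact permutation over samples, for pairs with more than 3 counts in every library. The *Aldh1a1* to *Aldh1a7* comparison was chosen after its values were seen. Promoters came from RefSeq (GRCm38.p6, a patch release of the assembly that mm10 names). The script was tested on simulated counts.

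The genes and lists were chosen with earlier results of these data known. Named were all 9 genes, up to 4 tested genes with the smallest p per pathway list and up to 2 per marker list (1 gene that the rule names is not reported here), and 3 genes of similar pattern for each of the 2 largest changes. *Krt1*, *Krt14*, *Mitf*, *Hoxa4*, *Rdh5*, *Rdh9*, *Rdh11*, *Rdh14*, *Dhrs4*, *Dhrs9*, *Adh1*, *Adh7*, *Ccdc33* and *Gm22061* fall outside this rule and were named after their values were seen. Alternatives were RLE scaling, total counts, no filter, at least 10 counts in every library, the study's DEG limits, edgeR's exact test, DESeq2 1.42.0, a replicate block, *Aldh1a1* summed with *Aldh1a7*, 5 in place of 0.5 added to ratios, and each library left out in turn.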

Additional observations from a re-analysis of the deposited data

How the results depend on the processing

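Of the 9 genes, 5 were called higher and 2 lower at an adjusted p under 0.05. With the DEG limits (p under 0.05 before adjustment, more than 2-fold), 1 was lower, and with p under 1e-05 instead, 2 were higher and 0 lower. Of the pathway genes, 14 were higher, and 22 without a filter on low counts, which adds rows to the test. With each library left out in turn, 4 to 5 of the 9 genes were higher and 2 lower, and 13 to 16 pathway genes were higher and 22 to 24 lower. *Rarb* lost its call without control replicate 2 (0.57, adjusted p = 0.0516, edgeR's quasi-likelihood test), and *Crabp1*, not called, changed sign without control replicate 1 (log2 fold changes from -0.022 to 0.12 with single libraries left out). The cause was not tested. Among the values for single genes under the alternatives, 432 kept their direction and their side of the threshold, 9 gained a call, 1 lost it and 1 changed sign.

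Deviations of same-numbered control and senescent samples had correlations of -0.15, 0.14 and -0.12, and those of differently numbered samples ran from -0.21 to 0.26. With 3 libraries per group, such values cannot show whether or not the numbers pair the samples. With the replicate number as a block, 5 of the 9 genes were higher and 2 lower, and 13 pathway genes were higher and 23 lower.

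Levels below 0.1 CPM rest on a few counts, and folds of *Stra6* and *Aldh1a2* are limited by depth in control cells. For *Stra6*, the fitted log2 fold change ran from 4.73 to 7.40 with single libraries left out.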
